A study of Mus musculus with 6 samples.

Results

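The genes described here are p53 target genes, death receptors and inhibitors of the cell cycle in 3T3-L1 cells, a mouse fibroblast line that takes on features of adipocytes after hormonal induction. The set has 10 genes by name (Trp53, Cdkn1a, Cdkn2a, Cdkn2b, Mdm2, Fas, Eda2r, Tnfrsf10b, Ccng1 and Bbc3), and a gene was measured where a transcript cluster of the array carried its symbol alone, the brightest cluster being used. By that rule 9 of the 10 were measured, among 19091 protein-coding genes tested, and Trp53 was not analysed here. The shSTOM-1 cells carried a lentivirus with 1 shRNA against Stom, and the control cells carried the Plas4w vector alone. All cells of both groups had been selected with puromycin (3 µg/ml for 3 days), grown to confluence, induced with IBMX, dexamethasone and insulin, and harvested on day 7 of adipogenesis. Each group had 3 arrays, numbered as clones. Neither the labels nor the methods state that each clone was a culture of its own. The p-values therefore reflect only how far these samples spread, and that spread may be technical.

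p53 is a transcription factor that is held at a low level by Mdm2, a ubiquitin ligase that p53 itself induces. When stress stabilises p53, it binds pairs of a short half-site in DNA and induces genes that stop the cell cycle, repair DNA or promote cell death, among them the death receptors of the tumour necrosis factor receptor family. The products of Cdkn2a and Cdkn2b act beside it: p16 and p15 inhibit the kinases Cdk4 and Cdk6, which keeps the retinoblastoma protein active, and p19ARF, the other product of Cdkn2a, blocks Mdm2. In 3T3-L1 cells, hormonal induction is followed by a few rounds of division before the cells leave the cycle and fill with lipid, and CDK inhibitors take part in that exit.

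Values are log2 array signals as the authors deposited them, so that a difference of 1 is a doubling, and array medians lay between 5.06 and 5.11. Stom was at 10.57, 10.6 and 10.67 in shSTOM-1 clones 1 to 3 and at 13.17, 13.03 and 13.26 in control clones 1 to 3, which is 5.82-fold lower in shSTOM-1 cells. All 12 adipocyte markers were lower and all 10 measured preadipocyte and fibroblast markers were higher in shSTOM-1 cells. The mean signal of the adipocyte markers ran from 11.07 to 11.58 over the shSTOM-1 arrays and from 15.34 to 15.44 over the control arrays. That of the preadipocyte and fibroblast markers ran from 14.42 to 14.51 and from 12.33 to 12.48. The part of this difference in maturation in the results on p53 targets, death receptors and cell-cycle genes was not tested, and in bulk RNA, fewer cells of a type and less RNA per cell cannot be told apart. Markers of macrophages, endothelium and epithelium had mean signals from 4.46 to 5.05 on every array, below the median of all values, 5.1. Single macrophage markers were above it: Cd68 was 1.65-fold lower and Lyz2 1.5-fold higher in shSTOM-1 cells, and Cd14, not called, ran from 5.27 to 6.02 over all arrays. Krt5 and Krt14, of the epithelial list, ran from 4.97 to 5.22. The defining macrophage markers Ptprc, Adgre1 and Csf1r had group means from 4.2 to 4.52.

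The promoters of the members differ in whether they hold the p53 half-site, which is why they are shown. RefSeq promoter windows of 300 bases (250 before and 50 after a start site, GRCm38.p6) were at hand for 8 of the 9 measured members, 12 windows in all, and none was at hand for Tnfrsf10b. They were searched for the 10-base p53 half-site consensus, which is its own reverse complement, so that a match lies on both strands. Mdm2, Cdkn1a and Ccng1 each had a window with a match, and the other 5 members had none. Over all coding genes, 7.37% of 21263 windows held a match. The sequences follow 5′ to 3′ on the strand of the gene, with half-sites in capitals, for these 3 genes and for Fas and Eda2r, the members with the largest changes, which had none.
Cdkn1a, upstream start, chr17:29090729-29091028, plus strand: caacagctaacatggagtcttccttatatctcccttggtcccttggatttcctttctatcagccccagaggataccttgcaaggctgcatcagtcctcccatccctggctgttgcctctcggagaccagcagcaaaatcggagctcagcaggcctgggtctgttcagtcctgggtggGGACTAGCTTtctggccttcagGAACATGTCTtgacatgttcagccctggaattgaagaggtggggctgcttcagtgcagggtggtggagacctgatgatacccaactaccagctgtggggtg
Mdm2, chr10:117710709-117711008, minus strand: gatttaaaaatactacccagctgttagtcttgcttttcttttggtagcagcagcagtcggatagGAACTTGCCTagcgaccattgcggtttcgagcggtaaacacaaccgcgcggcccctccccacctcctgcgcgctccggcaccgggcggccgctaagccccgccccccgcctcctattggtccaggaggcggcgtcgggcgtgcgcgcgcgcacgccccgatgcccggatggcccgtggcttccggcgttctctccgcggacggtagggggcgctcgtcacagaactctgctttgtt
Ccng1, chr11:40755237-40755536, minus strand: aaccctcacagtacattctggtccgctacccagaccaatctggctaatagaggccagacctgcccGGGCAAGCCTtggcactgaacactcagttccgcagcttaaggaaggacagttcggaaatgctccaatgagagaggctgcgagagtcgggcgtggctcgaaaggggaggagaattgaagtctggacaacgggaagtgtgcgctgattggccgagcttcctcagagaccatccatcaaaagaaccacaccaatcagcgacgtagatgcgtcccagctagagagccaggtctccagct
Fas, chr19:34290409-34290708, plus strand: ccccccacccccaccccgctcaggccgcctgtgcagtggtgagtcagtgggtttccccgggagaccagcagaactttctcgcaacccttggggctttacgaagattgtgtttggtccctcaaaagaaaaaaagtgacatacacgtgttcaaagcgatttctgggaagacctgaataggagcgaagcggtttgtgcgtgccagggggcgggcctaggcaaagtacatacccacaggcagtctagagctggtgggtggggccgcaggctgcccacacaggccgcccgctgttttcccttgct
Eda2r, chrX:97377160-97377459, minus strand: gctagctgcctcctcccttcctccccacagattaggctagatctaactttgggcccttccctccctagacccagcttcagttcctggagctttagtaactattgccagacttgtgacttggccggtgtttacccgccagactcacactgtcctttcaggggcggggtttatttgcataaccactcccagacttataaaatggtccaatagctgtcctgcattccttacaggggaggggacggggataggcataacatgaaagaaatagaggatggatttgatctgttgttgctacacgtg

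The Cdkn1a window is that of the upstream of its 2 start sites and holds a pair of half-sites, GGACTAGCTT and GAACATGTCT, which begin 73 and 51 bases before the start site and lie 12 bases apart. GAACATGTCT begins 2841 bases before the other start site, whose own window had no match. Pairs separated by at most 13 bases were present in 10 of all windows (0.047%). The Mdm2 window holds GAACTTGCCT, which begins 186 bases before the start site, and the Ccng1 window holds GGGCAAGCCT, which begins 185 bases before it. The search counted exact matches only. In the Cdkn1a window the 10 bases right after GAACATGTCT, tgacatgttc, depart from the consensus at their first base alone and were not counted. Which bases p53 binds there was not tested. A match describes these letters only, and their absence from a window says nothing of other parts of a gene.

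Between shSTOM-1 and control cells, 5 of the 9 measured members rose and 3 fell at an adjusted p under 0.05 (limma), and Mdm2 was not called. The 3 receptors of the set rose, by 9.4-fold for Eda2r, 4.54-fold for Fas and 3.04-fold for Tnfrsf10b. The inhibitors Cdkn2b and Cdkn2a also rose. Cdkn1a, Ccng1 and Bbc3 fell by smaller amounts, and Bbc3 kept its call in only 9 of 15 alternative settings. Known p53 targets were among the members that fell, such as Cdkn1a, and among those that rose, such as Eda2r. The 2 groups differed widely over the whole array: 44.9% of all coding genes passed the same threshold, 22.2% higher and 22.7% lower in shSTOM-1 cells, and among the brighter genes, those with a group mean at or above the median of all values, the share was 69.4%. No share by direction was taken over the brighter genes. Directional shares of the lists below therefore stand beside all coding genes only, although many listed genes are bright. The groups did not overlap for 8 of the 9 members, and for 51.9% of all coding genes. Only Eda2r, Fas and Tnfrsf10b passed the thresholds that the study used, an adjusted p under 0.001 with at least a 3-fold change. In the limma fit 5.20% of coding genes passed them. The study applied them in its own software to a smaller set of coding probe sets, so its count cannot be set directly beside this share. The median log2 change was 0.84 over the 9 members and 0.0 over all genes. For the 8 members whose groups did not overlap, the two-sided exact permutation test gave p = 0.1, the smallest that 3 arrays against 3 allow.

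**Figure D1:**
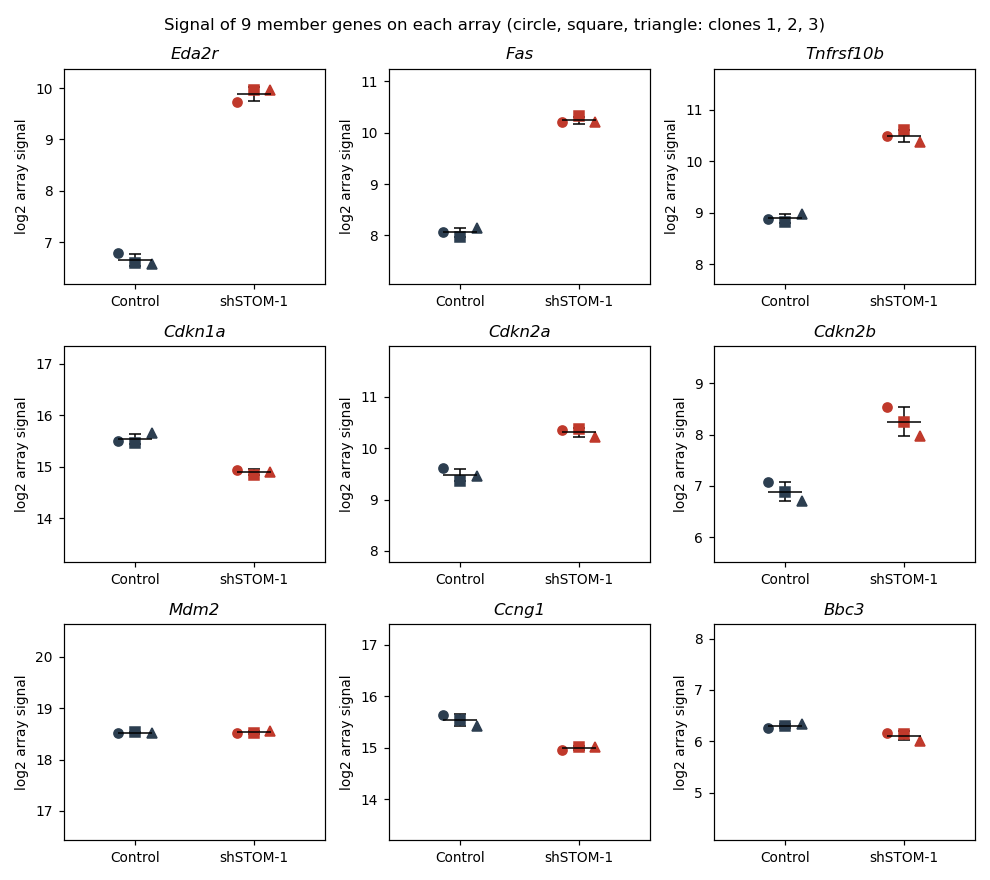
Log2 array signal of the 9 measured members, 1 panel a gene, with 1 point for each of the 3 control clones (dark) and 3 shSTOM-1 clones (red), a line at the mean and bars of 1 SD. The groups do not overlap in any panel but that of Mdm2, where all 6 points lie between 18.51 and 18.56, and in that of Bbc3 they are only 0.09 apart.

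Mdm2, the ubiquitin ligase that restrains p53, was at 18.51, 18.52 and 18.56 in shSTOM-1 cells and at 18.51, 18.53 and 18.52 in control cells. The groups overlapped. The log2 difference was 0.01 with a 95% interval from -0.09 to 0.11 (adjusted p = 0.89 from limma). Its signal lies near the highest value of the whole table, 19.59, and above the control mean of the adipocyte marker Fabp4, 18.19. The values carry no saturation flag, so a limit of the scale at this brightness was not tested. Whether the cluster reads Mdm2 alone was not tested either. Among other regulators of p53, from a list of kinases, ligases and cofactors, 10 of 25 measured genes rose, 8 fell and 7 were not called, with a median log2 change of -0.02. The share called was 72.0%, against 44.9% of all coding genes and 69.4% of the brighter ones.

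Hipk2, a kinase that phosphorylates p53, fell by 2.43 on the log2 scale and was 5.39-fold lower (adjusted p = 6.64e-08, limma). Chek2, the checkpoint kinase of the DNA damage response, was 1.72-fold lower. Trp53bp1, which acts in repair of double-strand breaks, was 1.77-fold higher, and Ppp1r13b, which encodes the p53 cofactor ASPP1, was 1.58-fold lower. Regulators in this list therefore moved in both directions. Mdm4, the partner of Mdm2, had a log2 difference of -0.03 with an interval from -0.14 to 0.08, and Ppm1d, a phosphatase that p53 induces and that dampens the damage response, also had -0.03 with the same interval. Both were chosen for mention after their values had been seen.

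Cdkn1a encodes p21, the CDK inhibitor through which p53 arrests the cycle, and it is the member with the paired half-sites above. It was at 14.94, 14.83 and 14.9 in shSTOM-1 cells and at 15.5, 15.47 and 15.65 in control cells. All 3 shSTOM-1 values lay below the lowest control value. The means were 14.89 ± 0.06 and 15.54 ± 0.1 (SD, n = 3 each), a log2 change of -0.65 (SE 0.06, 95% interval -0.79 to -0.51, adjusted p = 2.4e-05 from limma), or 1.57-fold lower. Of all coding genes, 18.2% had a larger change in either direction.

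Cdkn2a encodes p16 and p19ARF from overlapping transcripts, which the transcript cluster on chromosome 4 cannot separate. Its signals were 10.35, 10.38 and 10.21 in shSTOM-1 cells against 9.61, 9.37 and 9.45 in control cells. Every shSTOM-1 clone was above every control clone. The log2 change was 0.84 (SE 0.07, 95% interval 0.67 to 1.01, adjusted p = 1.59e-05 from limma), or 1.79-fold higher.

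Cdkn2b, next to Cdkn2a on chromosome 4, encodes the CDK inhibitor p15. Signals of 8.53, 8.25 and 7.97 were read in shSTOM-1 cells and of 7.08, 6.88 and 6.71 in control cells. The clones spread more for Cdkn2b than for any other measured member (SD 0.28 and 0.19), yet the lowest shSTOM-1 clone was above the highest control clone. The log2 change was 1.36 (SE 0.14, 95% interval 1.04 to 1.68, adjusted p = 4.57e-05 from limma), or 2.57-fold higher. The inhibitors thus did not move as a group: the p53 target Cdkn1a fell while both genes of the Cdkn2a and Cdkn2b locus rose.

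Other inhibitors, with the cyclins, their kinases and the pocket proteins that they act on, formed a list of 20 measured genes, of which 13 fell, 4 rose and 3 were not called, with a median log2 change of -0.61. The share called was 85.0%, against 44.9% of all coding genes and 69.4% of the brighter ones, and 65.0% fell against 22.7% of all coding genes. Rb1, the retinoblastoma protein, was at 10.49, 10.55 and 10.7 in shSTOM-1 cells and at 12.63, 12.71 and 12.59 in control cells. It was lower in every clone, by 4.18-fold (adjusted p = 2.67e-08, limma). Cdkn2c, which encodes the inhibitor p18, was at 9.26, 8.91 and 9.1 against 11.04, 11.14 and 11.03, or 3.94-fold lower. Ccne1 and Ccne2, the E cyclins that drive entry into S phase, were 4.11-fold and 3.29-fold lower. Genes outside the naming rule were chosen after their values had been seen: Cdkn1b, which encodes the inhibitor p27, was 2.12-fold higher, Cdk4 was also 2.12-fold higher, and Cdkn1c, which encodes p57, had a log2 difference of -0.09 (95% interval -0.21 to 0.04).

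Of 32 measured genes that the E2F factors or the DREAM complex, which represses genes of the cell cycle, are known to control, 16 fell, 3 rose and 13 were not called, with a median log2 change of -0.19. This is 59.4% called, against 44.9% of all coding genes and 69.4% of the brighter ones, with 50.0% lower against 22.7% of all coding genes. Ccnb2, a mitotic cyclin, was 1.75-fold lower, the spindle checkpoint kinase Ttk was 1.61-fold lower and the mitotic kinase Plk1 was 1.52-fold lower. Mcm4, a subunit of the replicative helicase, was 1.61-fold higher. No gene of this list reached 2-fold, but the list does not hold every gene that E2F factors control. The E cyclins, also known as E2F targets, were counted in the list before it, where they fell by more. Mki67, the proliferation marker, named after its values had been seen, had a log2 difference of -0.29 and was not called (adjusted p = 0.0824, limma).

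**Figure D2:**
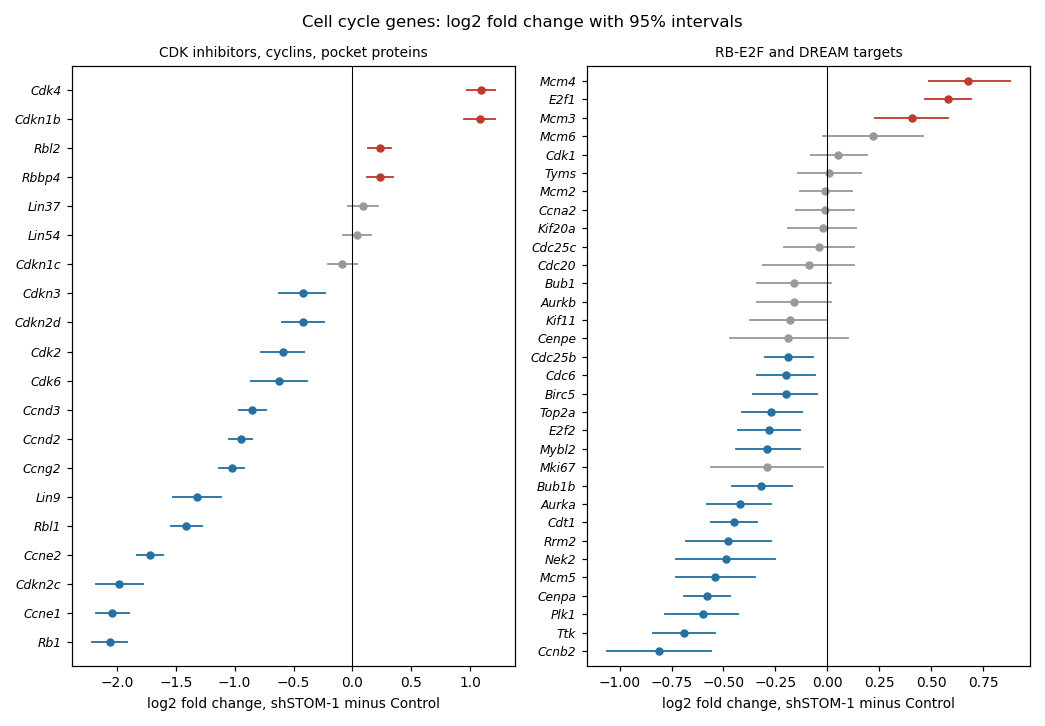
Log2 fold change, shSTOM-1 minus control, of each measured gene of the inhibitor, cyclin and pocket protein list (left) and of the E2F and DREAM list (right), with 95% intervals, red where higher, blue where lower and grey where not called. Rb1, Ccne1 and Cdkn2c lie farthest to the left, near -2, and 4 genes of the first list lie to the right of 0 as called.

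Ccng1, which encodes cyclin G1, a p53 target that binds Mdm2 and a phosphatase, was at 14.95, 15.02 and 15.01 in shSTOM-1 cells and at 15.64, 15.54 and 15.43 in control cells. The groups did not overlap. Its log2 change was -0.54 (SE 0.06, 95% interval -0.68 to -0.4, adjusted p = 7.92e-05 from limma), or 1.46-fold lower. Bbc3 encodes PUMA, a protein of the Bcl2 family that triggers cell death, and was at 6.17, 6.15 and 6.01 against 6.26, 6.3 and 6.34. The highest shSTOM-1 value and the lowest control value were 0.09 apart. The log2 change of -0.19 (95% interval -0.32 to -0.06) passed the threshold (adjusted p = 0.0238, limma), but the call was lost when any of control clone 2, control clone 3 and shSTOM-1 clone 3 was left out, with adjusted p of 0.0633, 0.0736 and 0.082, and without moderation of the variances (0.0624).

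**Figure D3:**
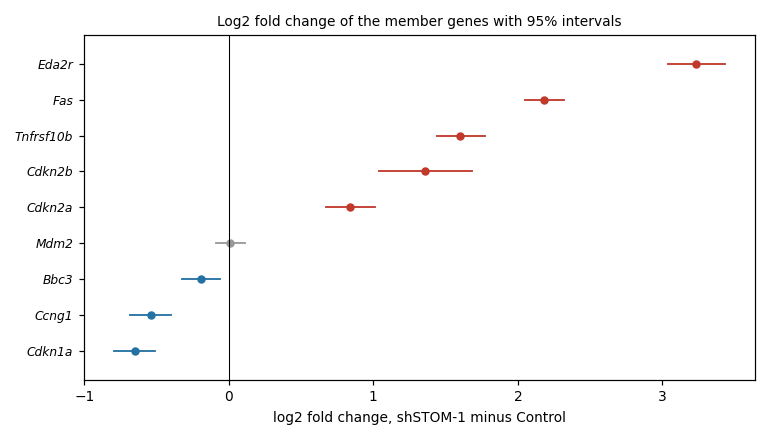
Log2 fold change of the 9 measured members, shSTOM-1 minus control, with 95% intervals, red where higher, blue where lower and grey where not called. Eda2r, Fas and Tnfrsf10b lie at 1.6 or more, and Bbc3 lies nearest to 0 of the called genes.

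Further p53 targets, none of them among the 10 genes, were taken from 2 lists written with earlier results of these data known. Of 53 measured, 24 rose, 13 fell and 16 were not called, with a median log2 change of 0.13. The share called was 69.8%, against 44.9% of all coding genes and 69.4% of the brighter ones, and the list holds both bright and dim genes. The share that rose, 45.3%, stands beside 22.2% of all coding genes, and the share that fell, 24.5%, beside 22.7%. In the arrest and repair list 19 of 38 measured genes rose and 8 fell, and in the apoptosis list 5 of 15 rose and 5 fell.

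Plk2, a polo-like kinase that p53 induces, was at 12.53, 12.76 and 12.67 in shSTOM-1 cells and at 9.11, 9.24 and 9.35 in control cells. It was higher in every clone, by 10.7-fold (adjusted p = 8.38e-09, limma). Cpt1c, a carnitine palmitoyltransferase known from brain, rose 3.94-fold, the adenylate kinase Ak1 rose 3.39-fold and Psrc1, which binds microtubules, rose 3.17-fold. Among the apoptosis targets, Thbs1, which encodes the matrix protein thrombospondin 1, was 5.07-fold higher, Apaf1, the core of the apoptosome, 2.67-fold higher, Siva1 2.22-fold higher and the iron reductase Steap3 2.16-fold higher. Targets that fell were named after their values had been seen: Btg2, which slows division, was 2.44-fold lower, Plk3 2.57-fold lower, Tigar, which lowers glycolytic flux, 2.51-fold lower, and Gadd45a, a stress sensor, 2.13-fold lower. For none of these 4 did the groups overlap, so targets well separated between the groups lay on both sides of 0.

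**Figure D4:**
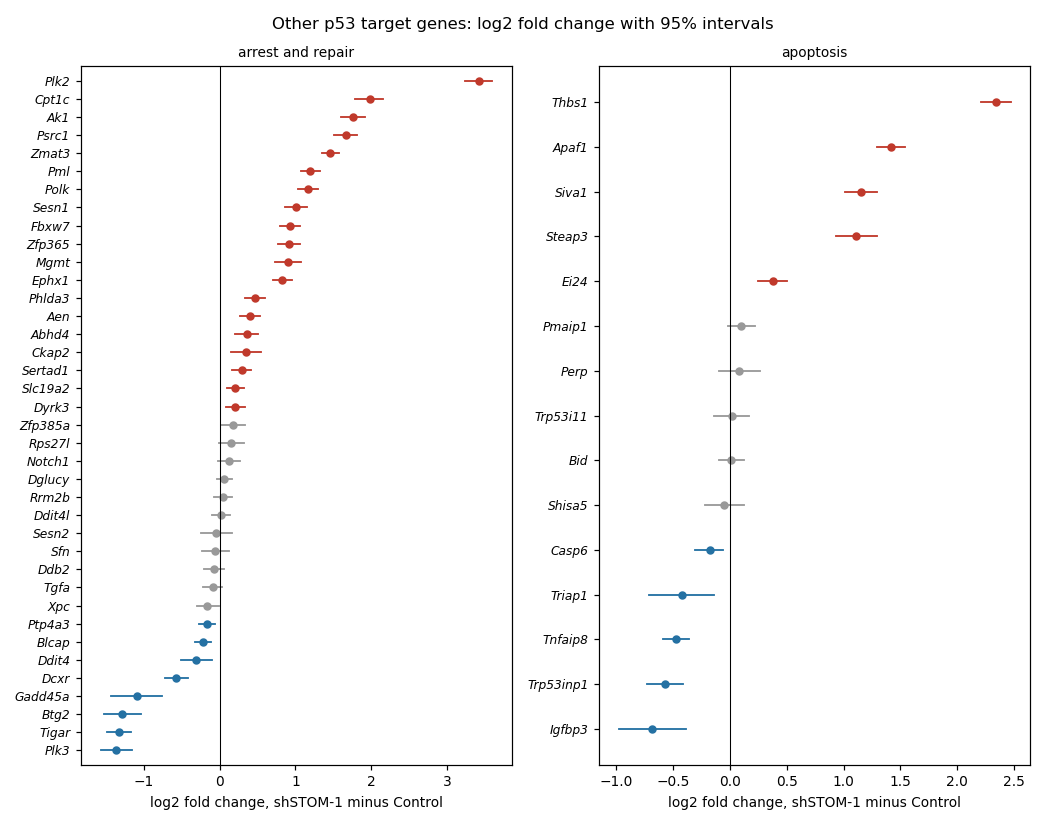
Log2 fold change, shSTOM-1 minus control, of the p53 targets of the arrest and repair list and of the apoptosis list, with 95% intervals, red where higher, blue where lower and grey where not called. Plk2 lies farthest to the right at 3.42, and called genes lie on both sides of 0.

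The microRNAs of the miR-34 family are also known targets of p53. The array reads the precursor or its host transcript, and Mir34a was at 7.14, 7.08 and 7.0 in shSTOM-1 cells and at 5.5, 5.9 and 5.43 in control cells. It was 2.76-fold higher with no overlap (adjusted p = 2.84e-05, limma). Mir34b had a log2 difference of -0.07 and Mir34c of 0.0, and neither was called. In RefSeq the mature 5p arms of Mir34a and Mir34b share the seed, shown in capitals (bases 2 to 8), and of these Mir34a was called and Mir34b was not.
mmu-miR-34a-5p: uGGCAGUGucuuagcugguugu
mmu-miR-34b-5p: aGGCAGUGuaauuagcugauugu

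Among 12 measured non-coding RNAs known as p53 targets, Mir34a included, 5 rose and 2 fell, or 58.3% called. In the table of all genes with a symbol, in which they were tested, 36.7% were called. Pvt1, a long RNA beside Myc, was 1.65-fold higher, Neat1, the scaffold of nuclear paraspeckles, was 2.62-fold lower and Mir107 was 1.82-fold lower.

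Fas, on chromosome 19, is the receptor of Fas ligand and recruits Fadd and caspase 8 through its death domain. Its signals were 10.21, 10.32 and 10.2 in shSTOM-1 cells and 8.06, 7.98 and 8.14 in control cells. The clones of a group lay within 0.16 of each other and the groups were more than 2 apart. The log2 change was 2.18 (SE 0.06, 95% interval 2.05 to 2.32, adjusted p = 1.36e-08 from limma), or 4.54-fold higher, and 2.5% of coding genes changed more. A second transcript cluster carries the symbol Fas, but its identifier names chromosome 17. It was at 8.1, 8.18 and 8.07 against 8.02, 7.87 and 7.89, a log2 difference of 0.19 (95% interval 0.03 to 0.35) that was not called in the fit of every cluster (adjusted p = 0.0885, limma). With the mean of both clusters in place of the brighter one, the log2 change of Fas was 1.19.

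Tnfrsf10b, on chromosome 14, is the death receptor for TRAIL in the mouse. It was at 10.5, 10.61 and 10.37 in shSTOM-1 cells and at 8.88, 8.81 and 8.98 in control cells. Every shSTOM-1 clone was above every control clone. The log2 change was 1.6 (SE 0.07, 95% interval 1.44 to 1.77, adjusted p = 2.05e-07 from limma), or 3.04-fold higher. Its interval overlaps that of Cdkn2b, so the order of these 2 changes is not settled.

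Eda2r, on the X chromosome, is the receptor of the A2 form of ectodysplasin and is known as a p53 target. It was at 9.72, 9.97 and 9.97 in shSTOM-1 cells and at 6.79, 6.59 and 6.58 in control cells. No member had a larger difference, and the SDs were 0.14 and 0.12 (n = 3 each). The log2 change was 3.23 (SE 0.09, 95% interval 3.04 to 3.43, adjusted p = 1.25e-08 from limma), or 9.4-fold higher, and 0.681% of coding genes changed more.

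The other 24 measured receptors of the family split as follows: 4 rose, 3 fell and 17 were not called, so that 29.2% were called, against 44.9% of all coding genes and 69.4% of the brighter ones. Tnfrsf21, which encodes death receptor DR6, was 3.3-fold higher (adjusted p = 1.07e-08, limma), and Tnfrsf1b, the receptor of tumour necrosis factor that has no death domain, was 2.08-fold higher. Tnfrsf1a, which has one, was 1.62-fold lower. Tnfrsf23, a mouse decoy receptor for TRAIL, was 1.45-fold higher. These changes had no common direction.

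Of 7 measured ligands of these receptors, Eda and Lta were called (28.6%), against 44.9% of all coding genes and 69.4% of the brighter ones. The mean signal of the 7 ran from 4.77 to 4.86 over the arrays, below the median of all values. Eda encodes ectodysplasin, and its cluster carries the gene symbol alone, which does not separate the A2 form that binds Eda2r from the A1 form. It was at 7.25, 7.28 and 7.26 in shSTOM-1 cells and at 6.88, 6.8 and 6.92 in control cells, or 1.32-fold higher (adjusted p = 0.000141, limma). Lta was 1.32-fold lower, and in shSTOM-1 cells its signals, 4.84 to 4.94, were under the median of all values. Fas ligand (Fasl) and TRAIL (Tnfsf10) had log2 differences of -0.07 (95% interval -0.24 to 0.09) and -0.05 (-0.15 to 0.05), and on every array both were under the median of all values.

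Downstream of the receptors, 10 of 22 measured signalling genes fell, 3 rose and 9 were not called, with a median log2 change of -0.09. This is 59.1% called, against 44.9% of all coding genes and 69.4% of the brighter ones. By direction, 45.5% fell against 22.7% of all coding genes, and 13.6% rose against 22.2%. These figures include the cluster that carries the symbol Cflar, described below. Named after their values had been seen, the 3 that rose were Birc3 (1.64-fold), Tradd (1.6-fold) and Ripk3 (1.2-fold). Casp8, the initiator caspase, was 1.97-fold lower (adjusted p = 2.9e-06, limma). Faf1, which binds Fas, was 1.79-fold lower and Mlkl, the effector of necroptosis, 3.02-fold lower. The cluster that carries the symbol Cflar, the gene of the caspase 8 inhibitor FLIP, is the only one of the listed genes' clusters whose identifier names another chromosome (3) than RefSeq does (1), so its value is not given as that of Cflar. Without it 9 of 21 signalling genes fell and 3 rose. Fadd, the adaptor between receptor and caspase, was at 6.54, 6.67 and 6.36 against 6.42, 6.44 and 6.76, with overlapping groups and a log2 difference of -0.02 (95% interval -0.26 to 0.23).

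In the Bcl2 family, which controls the mitochondrial route to cell death and to which Bbc3 belongs, 6 of the 19 other measured genes rose and 4 fell, or 52.6% called, against 44.9% of all coding genes and 69.4% of the brighter ones. Bcl2l11, which encodes the death-promoting protein BIM, was 1.97-fold higher and Bmf, of the same class, 1.89-fold higher. Bnip3 was 7.26-fold lower and Bcl2l13 4.89-fold lower, and both are known also as receptors for the removal of mitochondria. Named after their values had been seen, the death-inhibiting genes Bcl2 and Bcl2l1 were 1.61-fold and 1.66-fold higher, so genes that promote and genes that inhibit cell death both rose.

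**Figure D5:**
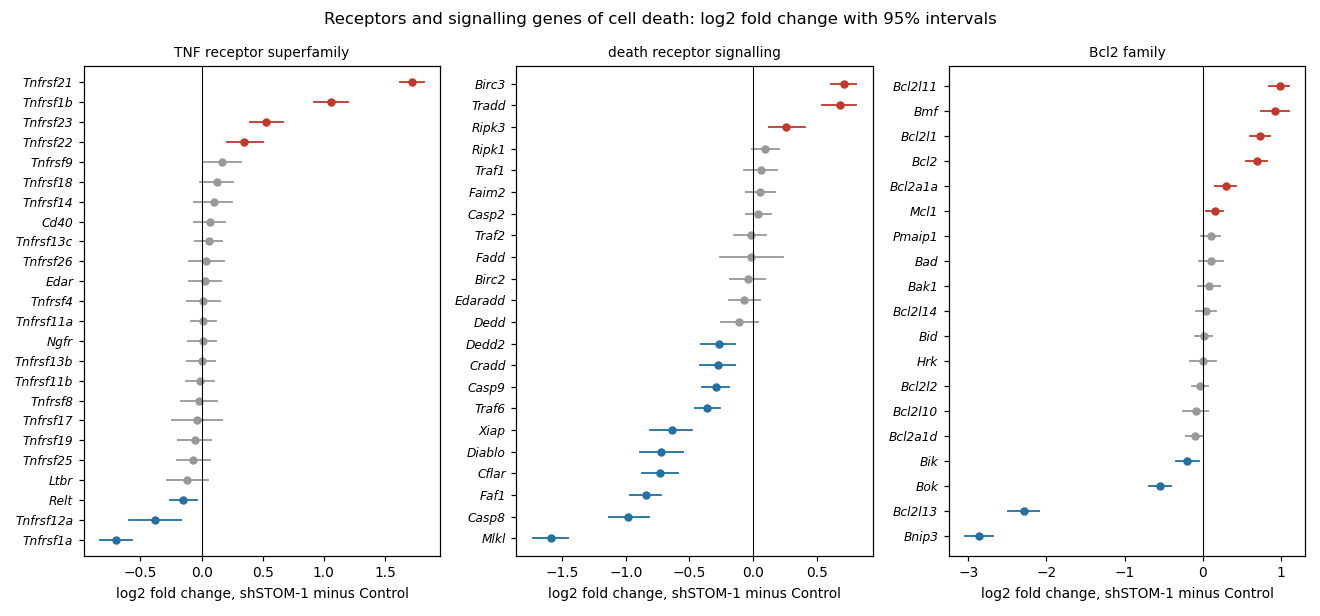
Log2 fold change, shSTOM-1 minus control, of the other receptors of the family (left), death receptor signalling genes (middle) and the Bcl2 family (right), with 95% intervals, red where higher, blue where lower and grey where not called. Most of the receptors lie near 0 in grey, Casp8, Faf1 and Mlkl lie to the left of 0, the point named Cflar is that of the cluster whose identifier names chromosome 3, and Bnip3 lies farthest to the left at -2.86.

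Genes with the pattern closest to that of Cdkn1a and of Fas were found by the Euclidean distance of the 6 log2 values after the mean of each gene had been subtracted. For Cdkn1a these were Nit2 (distance 0.0297), Ak3 (0.0555) and Mrpl22 (0.0699), with log2 changes of -0.64, -0.64 and -0.68. For Fas they were Gli3 (0.108), Phldb2 (0.112) and Scpep1 (0.119), with log2 changes of 2.21, 2.24 and 2.27. With 6 arrays in 2 groups, the distance rests largely on a like size of change.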

How the data were processed

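Total RNA (200 ng per sample) of 3 shSTOM-1 and 3 control samples was hybridised to Affymetrix MTA-1_0 arrays. The authors ran the scans through the Transcriptome Analysis Console, and the deposited values are log2 signals of 65956 transcript clusters. How background was corrected and arrays were normalized, and on which genome build, is not given in the sources used here. Of the clusters, 30921 had 1 gene symbol in the array annotation, 1893 had several and 33142 stayed unnamed, and 30919 matched RefSeq genes of GRCm38.p6. The brightest cluster was used for each of the 19091 coding genes, 241 of which had several.

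The shSTOM-1 and control arrays were compared by limma 3.58.1 (lmFit, eBayes, R 4.3.3, prior degrees of freedom 4.25), two-sided, and p-values were adjusted by Benjamini-Hochberg across every gene tested. Python 3.11.15 with pandas 2.3.3, scipy 1.17.1 and matplotlib 3.10.9 served for tables, exact permutation tests and plots. Before use, the fit was tested on simulated data. The number of arrays, 3 a group, limits the precision, and no detection calls were at hand.

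The members and gene lists were chosen with earlier results of these data known. Named genes were all members, up to 4 genes per list with the largest change among those called with groups that did not overlap, other clusters of members, cell type markers, Stom and the 3 genes closest to Cdkn1a and to Fas, and others are stated as chosen later. Trp53 was not analysed here. Alternatives were quantile normalization, median centring, leaving out dim genes, the mean of a gene's clusters, an intensity trend with robust settings, a linear model with unmoderated variances, a replicate block on the clone number, other sets of genes tested, stricter thresholds and each array left out.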

Additional observations from a re-analysis of the deposited data

How the results depend on the processing

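Cdkn1a, Cdkn2a, Cdkn2b, Ccng1, Fas, Tnfrsf10b and Eda2r kept their direction and their call in all 15 alternatives run on single genes, with log2 changes of -0.69 to -0.59, 0.78 to 0.9, 1.22 to 1.5, -0.6 to -0.49, 1.19 to 2.22, 1.54 to 1.67 and 3.19 to 3.32. Bbc3 kept its call in 9 of 15 (-0.24 to -0.14, adjusted p up to 0.0851 in limma). Mdm2 was called in 0 of 15, and its log2 difference ran from -0.01 to 0.07, the highest value being that under quantile normalization. With 1 array left out it ran from -0.01 to 0.02, below 0 without shSTOM-1 clone 3 (-0.01). At an adjusted p under 0.001 with 3-fold, 3 members were higher in place of 5, 0 lower in place of 3, and of the further p53 targets 5 were higher in place of 24 and 0 lower in place of 13. At an adjusted p under 0.001 alone, 7 of those targets were lower. The stricter thresholds cause these falls by construction.

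Same-numbered clones did not deviate together (correlations of -0.0409, 0.0262 and -0.125), so the numbers were not taken to pair the samples. With the clone number as a replicate block, 8176 coding genes were called in place of 8572, and Bbc3 kept its log2 change of -0.19 with an adjusted p of 0.0544 (limma). Background signal per array and detection calls were not at hand, so the measurement of dim genes such as Fasl could not be judged.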

Other observations

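Genes known to be secreted or changed in senescent cells, a list chosen with earlier results of these data known, were higher in shSTOM-1 cells in 17 of 27 measured cases and lower in 4, with a median log2 change of 0.5. This is 77.8% called, against 44.9% of all coding genes and 69.4% of the brighter ones (those at or above the median signal). By direction, 63.0% rose against 22.2% of all coding genes, and 14.8% fell against 22.7%. Plat, which encodes tissue plasminogen activator, was 24.9-fold higher and the matrix metalloproteinase Mmp3 22.3-fold higher. The chemokines Ccl2 and Ccl7 were 10.9-fold and 9.19-fold higher (adjusted p = 3.05e-08 and 6.91e-08, limma). Vegfa, Lmnb1 (lamin B1) and Il6 were named after their values had been seen. Vegfa was 6.74-fold lower, the largest fall of the list. Lmnb1, 1 of the 17, was 1.41-fold higher, whereas it is known to be lower in senescent cells. The counts do not separate genes by their known direction in senescent cells. Il6 was 1.26-fold lower, but ran from 4.14 to 4.73 over all arrays, below the median of all values. All 10 preadipocyte and fibroblast markers were also higher, and their part in these values was not tested.

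Of 24 measured regulators of the Cdkn2a and Cdkn2b locus, 8 rose, 7 fell and 9 were not called, or 62.5% called, against 44.9% of all coding genes and 69.4% of the brighter ones. Hmga2, an architectural chromatin protein, was 7.36-fold higher, the transcription factor Myc 5.22-fold lower, Twist1 3.43-fold higher and Id1 2.91-fold lower. Twist1 is also in the list of preadipocyte and fibroblast markers, so its rise was counted in both lists. Among Polycomb genes, named after their values had been seen, Ezh2 was 1.33-fold lower (adjusted p = 0.000143, limma), and Bmi1 had a log2 difference of -0.04 (95% interval -0.18 to 0.09).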
